A study of Mus musculus with 5 samples.

Results

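The regions described here were bound in 1 list only, that of V5-tagged Hoxc9, among 4 lists of transcription factor binding in mouse motor neuron progenitors, which were differentiated from embryonic stem cells. Binding events of the 4 lists on the 19 autosomes and X were pooled, and events no more than 200 bp from the previous one were chained into regions. Of 58192 regions, 10548 held an event of the V5 Hoxc9 list, and 1869 of these held no event of any other list (17.7%, Wilson 95% interval 17.0 to 18.5). The other 8679 V5 Hoxc9 regions served for comparison. The 1869 regions were chosen by the deposited event calls, that is by a V5 Hoxc9 event with no called event of the other lists close by, so their reads are given as a description and no test was run on them.

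Chromatin immunoprecipitation followed by sequencing (ChIP-seq) was used throughout, with 1 list per condition and no replicate list. All cells came from the Ainv15 embryonic stem cell line, in which doxycycline turns on an introduced factor, and all received retinoic acid (1 µM) and a hedgehog agonist (0.5 µM) from day 2 on. V5 Hoxc9 was precipitated with anti-V5 at day 5, with doxycycline, from a line carrying V5-tagged Hoxc9. This list is 1 list for 2 libraries, so the libraries cannot be compared. Flag Hoxc9 was precipitated with anti-Flag at day 5, with doxycycline, from a separate line carrying Flag-tagged Hoxc9 (1 library). V5 Olig2 was precipitated with anti-V5 at day 4, with doxycycline, from a line carrying V5-tagged Olig2 (1 library), and native Olig2 with an Olig2 antibody at day 4 from that same line without doxycycline (1 library). A mock anti-V5 precipitation of uninduced day 4 cells was not analysed here. The Hoxc9 measured is induced protein, and no expression was measured with which to check the cell stage against its markers.

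Hoxc9 is a homeodomain protein of the Hox family, whose members give cells their position along the body axis. In the spinal cord it is known for setting the thoracic identity of motor neurons, where it represses genes of limb-level neurons. Olig2 is a basic helix-loop-helix repressor that marks motor neuron progenitors. V5 and Flag are short peptide tags that let 1 antibody precipitate any factor carrying them. A listed event has IP reads, from the precipitated chromatin, and control reads, and the deposited ratio of the 2 is called IP/Control here. Sequences at these regions were not used here, and the regions are given by their mm9 position without gene names.

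Nearly all of the 1869 regions were single events, and most lay near the weak end of their list. A single event made up 1866 of them (99.8%), and 3 held 2 events within 200 bp of each other. Of the other V5 Hoxc9 regions, 94.3% had 1 V5 Hoxc9 event. Each region was given the values of its event with most IP reads. IP reads of the 1869 regions ran from 25 to 1626.8 with a median of 32 (95% interval of the median 31.7 to 32), beside a median of 59 (58 to 60) in the other V5 Hoxc9 regions. Intervals of a median are from order statistics and, like the Wilson intervals, cover counting error only. IP reads stayed under 35 in 1166 of the 1869 regions (62.4%), beside 23.6% of all V5 Hoxc9 regions. At the other end, 16 of the 1869 regions (0.856%) had 100 IP reads or more, beside 17.3% of all V5 Hoxc9 regions.

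The authors' values of significance lay low as well. The lowest −log10 q in the V5 Hoxc9 list was 2.001. The 1869 regions had a median −log10 q of 2.81, and the other V5 Hoxc9 regions 5.26. The value was under 3 in 1045 of the 1869 regions (55.9%), beside 27.7% of all V5 Hoxc9 regions. These q values belong to the same event calls that chose the regions.

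The share of V5 Hoxc9 regions that no other list held fell in every step of IP reads. It was 52.8% (551 of 1044, interval 49.7 to 55.8) at 25 to under 30 IP reads, 42.5% at 30 to under 35 and 24.9% at 35 to under 40. From 40 to under 50 it was 17.6%, and from 50 to under 60 it was 9.62%. From 60 to under 80 it was 3.87%, from 80 to under 100 it was 1.95%, from 100 to under 150 it was 1.13%, and at 150 or more it was 0.528% (4 of 758, 0.205 to 1.35). Among the weakest V5 Hoxc9 regions, those in that list alone were thus about as many as those shared with another list.

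**Figure D1:**
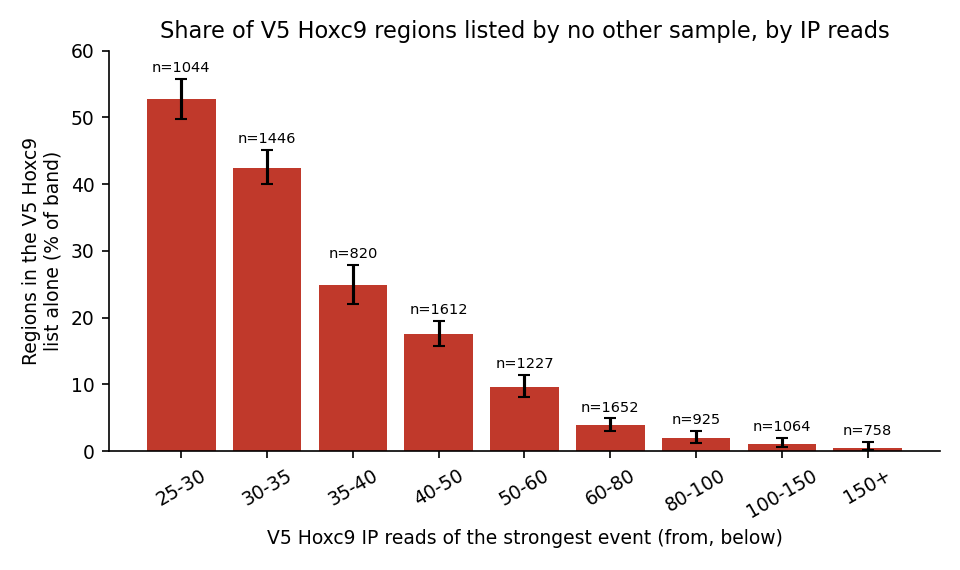
Share of V5 Hoxc9 regions held by no other list (y axis, percent of the band) by V5 Hoxc9 IP reads of the strongest event (x axis), with the number of regions in each band above its bar; error bars are Wilson 95% intervals. The bars fall from 52.8% at 25 to under 30 IP reads to 0.528% at 150 or more.

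Weak V5 Hoxc9 regions that did have a Flag Hoxc9 event had Flag IP reads near the middle of the Flag list, but low beside other shared Flag regions. Of the 1044 V5 Hoxc9 regions with under 30 IP reads, 471 had a Flag event (45.1%), and the strongest Flag event in those regions had a median of 65.5 Flag IP reads (quartiles 43.4 and 105). The lowest IP reads in the whole Flag list were 24 and its median 59, both over all its events and not over strongest events of regions. Flag regions shared with any other list had a median of 114 Flag IP reads. Of those 471 Flag events, 14.4% had under 35 IP reads. The share of all Flag events under 35 was not computed. At 150 or more V5 IP reads the Flag median was 498, and 99.3% of regions had a Flag event. IP reads of the lists are on their own scales, since library totals were not used here, so these are values side by side.

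Control reads were lower, not higher, in the 1869 regions as a whole. Their median control reads were 2.9 (interval 1.6 to 2.9), and those of the other V5 Hoxc9 regions 5.7 (5.1 to 5.9). Control reads were listed at 0 in 765 of the 1869 regions (40.9%, 38.7 to 43.2), beside 21.8% of all V5 Hoxc9 regions and 17.7% of the other V5 Hoxc9 regions (1534 of 8679). Control reads of 10 or more were found in 70 of the 1869 (3.75%, 2.98 to 4.71), beside 18.2% of all V5 Hoxc9 regions and 21.4% of the others. Regions rich in control reads were thus a small part of the set. Under 50 IP reads, however, no V5 Hoxc9 region of either group had 10 or more control reads. With only V5 Hoxc9 events of 50 or more IP reads, the share was 32.4% in that list alone and 34.3% in the others.

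Behind these medians stood a coarse scale. Control reads in the V5 Hoxc9 list fell in steps: 71.6% of its control values above 0 lay within 0.05 of a whole multiple of 2.95, where evenly spread values would give 3.39%. The step was 0.343 in the native Olig2 list, 1.04 in the V5 Olig2 list and 2.08 in the Flag Hoxc9 list, so control values were coarsest in the V5 Hoxc9 list. The files do not say what a step stands for. A median of 2.9 is 1 step and one of 5.7 is close to 2 steps. Of the 1869 regions, 1534 (82.1%) lay at 1 step or less, beside 51.6% of all V5 Hoxc9 regions. An IP/Control of such a region rests on 1 step of control or less. Of the 765 regions of the set with control listed at 0, 749 had an IP/Control of 9999.9. The other 16 had values from 629.7 to 8813.4, so their control was above 0 before rounding.

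**Figure D2:**
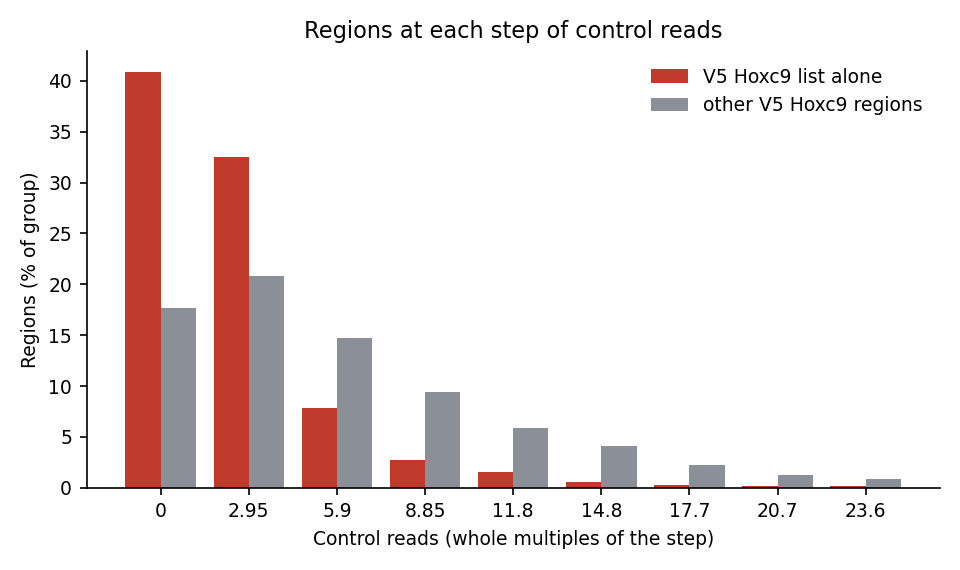
Regions at each whole multiple of the control step (x axis, control reads) as a percent of their group (y axis), for the 1869 regions of the V5 Hoxc9 list alone and the other V5 Hoxc9 regions. At 0 control reads stand 40.9% of the 1869 and 17.7% of the others, and at 1 step 32.5% and 20.8%.

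The lowest listed IP reads rose with each step of control, nearly alike in both groups. With no control reads the lowest IP reads were 25 in the 1869 regions and 25 in the others. At 1 step the lowest were 29.1 and 29.1, at 2 steps 39.3 and 39.1, and at 3 steps 47.1 and 47.6. The lowest at 4 steps were 55 and 54.1, and at 6 steps 70 and 69.8. Both groups thus began at nearly the same line, and the 1869 regions stayed nearer to it. Their median IP reads were 29 with no control reads and 33 at 1 step, where those of the other V5 Hoxc9 regions were 37 and 44. At 9 and 10 steps the 3 regions of the set, with 127, 133 and 135.2 IP reads, stood well above the lowest of the others (90 and 97).

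**Figure D3:**
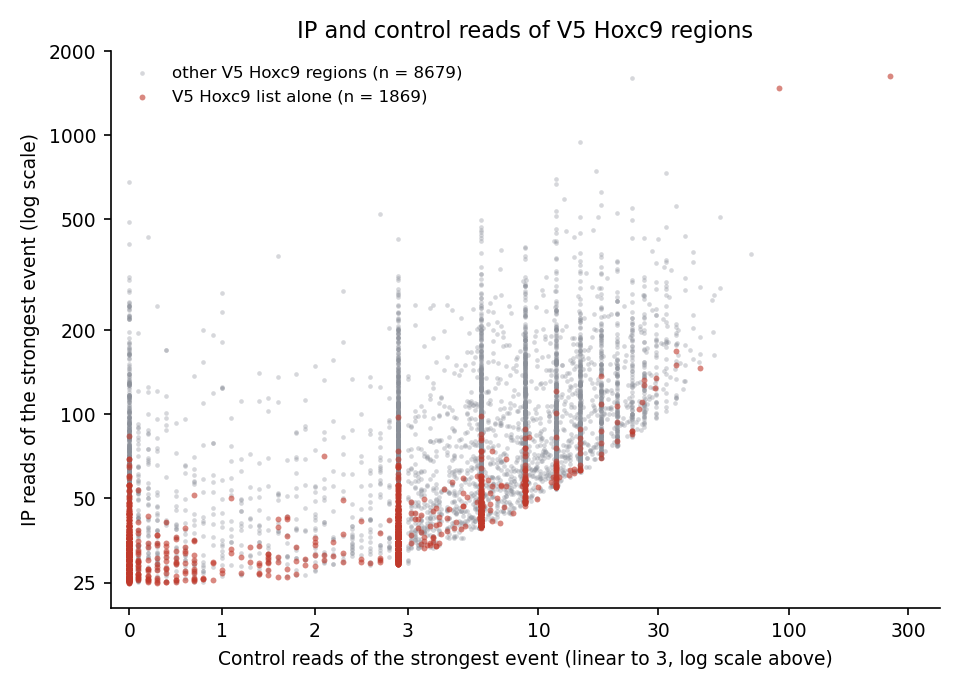
IP reads (y axis, log scale) against control reads (x axis, linear to 3 and log above) of the strongest V5 Hoxc9 event, 1 point per region, for the 1869 regions of the V5 Hoxc9 list alone and the 8679 other V5 Hoxc9 regions. Columns of points mark the control steps, most of the 1869 hug the lower edge of the cloud, and 2 of them stand apart at 1626.8 and 1472 IP reads with 254 and 91.4 control reads.

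IP/Control over the whole set was somewhat higher than in the other V5 Hoxc9 regions, and this turned round among regions with more IP reads. The median IP/Control was 16.6 (14.6 to 21.5) in the 1869 regions and 12.6 (12.4 to 12.9) in the others. IP/Control was under 10 in 299 of the 1869 (16.0%, 14.4 to 17.7), beside 31.7% of all V5 Hoxc9 regions and 35.1% of the others. It was under 5 in 37 (1.98%), beside 4.71% of all V5 Hoxc9 regions. With only V5 Hoxc9 events of 50 or more IP reads, 216 regions were left in the V5 Hoxc9 list alone. Their median IP/Control was 7.9 and that of the others 11.1, and 66.2% of them were under 10, beside 44.8% of the others. The direction of the difference over the whole set therefore depends on the many regions with few IP reads. A cut at −log10 q of 5 or more in all lists gave medians listed at 9999.9 and 18.3. It cannot test the direction, since −log10 q itself depends on control reads and weak regions pass mainly where these are low. The region at 84973039 on chromosome 12, with 146 IP and 44.2 control reads, had a −log10 q of 3.65. That at 76472714 on chromosome 11, with 47.2 IP reads and no control reads, had 8.0. The cut also applied to events of the other lists, so regions it left need not be among the 1869.

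Compared at like IP reads, the groups were close at low reads and apart at high reads. From 30 to under 35 IP reads, median IP/Control was 11.2 in the set and 11.5 in the others, and median control reads were 2.9 in both. Control reads were listed at 0 in 31.9% of the former and 34.1% of the latter. From 35 to under 40 IP reads the medians of IP/Control were 12.9 and 13.0, and from 40 to under 50 they were 13.6 and 13.8. Under 30 IP reads, most regions of both groups had no control reads (80.6% and 76.7%). Under 40 IP reads, then, the set had about the control reads of other V5 Hoxc9 regions of its own strength. From 40 to under 50 IP reads, median control reads were 3.2 (2.9 to 5.9) in the set and 2.9 (2.9 to 3.1) in the others. Control reads there were listed at 0 in 15.2% and 18.1%. The intervals of median IP/Control were 8.3 to 13.6 and 13.6 to 13.9.

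From 50 to under 60 IP reads, median control reads were 5.9 in both groups. Median IP/Control there was 8.75 (6.7 to 9.2) in the set and 9.5 (9.3 to 9.8) in the others. Above 60 IP reads the control medians of the set were higher, with intervals apart only from 100 IP reads on. From 60 to under 80 IP reads, median control reads were 8.8 in 64 regions of the set and 6.6 in the 1588 others, with intervals of 5.9 to 11.8 and 5.9 to 8.5 that overlap. Median IP/Control there was 7.15 and 10.2. From 80 to under 100 IP reads, control medians of 10.5 (18 regions) and 8.8 also had overlapping intervals. From 100 to under 150 IP reads, 12 regions of the set had a control median of 25.6 (17.7 to 29.2), and the others 8.8 (8.8 to 9.7). Median IP/Control was 4.9 (4.2 to 7.7) in the former and 12.1 (11.5 to 12.7) in the latter, and these intervals do not overlap.

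**Figure D4:**
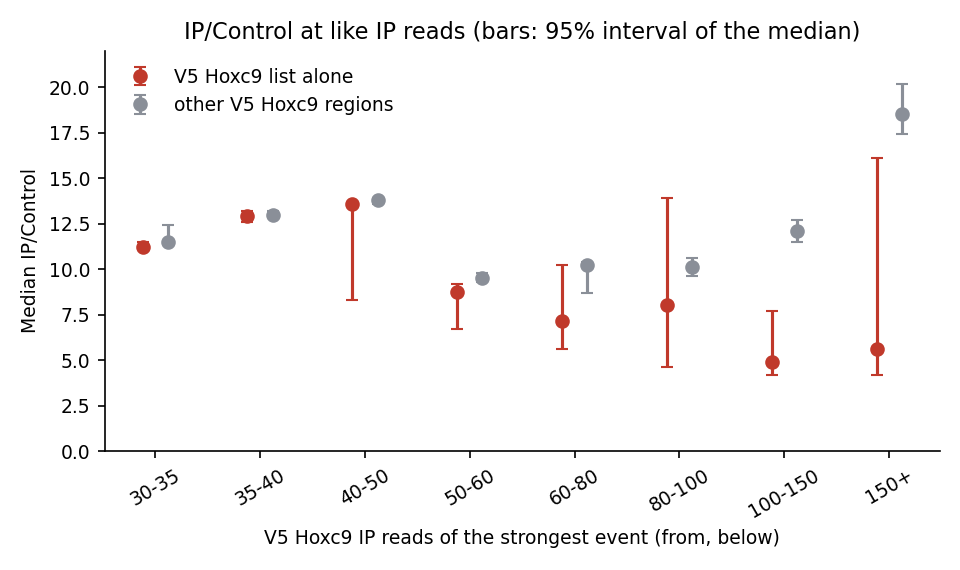
Median IP/Control (y axis) of the 1869 regions of the V5 Hoxc9 list alone and of the other V5 Hoxc9 regions, by V5 Hoxc9 IP reads of the strongest event (x axis); bars are the order-statistic 95% interval of the median, and for the 4 regions at 150 or more IP reads the bar is their whole range. The medians are 13.6 and 13.8 from 40 to under 50 IP reads, and 4.9 and 12.1 from 100 to under 150.

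Sorting V5 Hoxc9 regions of 100 or more IP reads by IP/Control shows the same regions of the set in another way, not a second observation. Of 114 such regions with IP/Control under 5, 8 stood in the V5 Hoxc9 list alone (7.02%, 3.60 to 13.2). Between 5 and under 10 it was 6 of 482 (1.24%), and at 10 or more it was 2 of 1226 (0.163%, 0.0447 to 0.593). Below 60 IP reads the order was the reverse, with 16.1% of regions under an IP/Control of 10 and 32.8% of those at 10 or more held by no other list. That class mixes strengths, as regions with fewest IP reads mostly had no control reads, and at like IP reads under 50 the medians of IP/Control were close, as given earlier. These classes were set after the values were seen.

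The 16 regions of the set with 100 or more IP reads all had at least 11.8 control reads, and 14 of them had an IP/Control under 10. Of the others, 46.6% from 100 to under 150 IP reads and 54.4% at 150 or more had 10 or more control reads. Of all 1822 V5 Hoxc9 regions with 100 or more IP reads, 1226 had an IP/Control of 10 or more. By far the most IP reads of the set were at 2 regions near the listed start of chromosome 9. At 3000454 there were 1626.8 IP and 254 control reads (IP/Control 6.4), the most IP reads in the V5 Hoxc9 list. At 3001412, 958 bp away, there were 1472 IP and 91.4 control reads (IP/Control 16.1). The nearest event of another list, a Flag Hoxc9 event with 33 IP reads, was 355466 and 354508 bp away. In the first 1 Mb after 3000454 the V5 Hoxc9 list held these 2 events, the Flag Hoxc9 list 4 and both Olig2 lists none.

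The third strongest region was far weaker. It lay at 79010758 on chromosome 13, with 169 IP and 35.4 control reads (IP/Control 4.8), and a native Olig2 event with 61 IP reads stood 575 bp away. The position 115751429 on chromosome 5 had 150 IP reads beside 35.4 control reads. At 84973039 on chromosome 12, 146 IP reads stood beside 44.2 control reads, an IP/Control of 3.3 that was the lowest of the set. A region at 63086945 on chromosome 17 had 137 IP and 17.7 control reads. Next came 181747876 on chromosome 2 (135.2 IP and 29.5 control reads) and 77639545 on chromosome 11 (133 and 26.5). The last of the 10 strongest were 78364371 on chromosome 11 (127 IP and 26.5 control reads) and 13745897 on chromosome 17 (123.9 and 29.2). IP/Control of these 8 regions ran from 3.3 to 7.7, all below the median of 12.6 in the other V5 Hoxc9 regions. By control reads, 9 of these 10 regions were again among the first 10. The remaining one there was 108874512 on chromosome 4, with 110.6 IP and 26.0 control reads.

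The strongest regions with control listed at 0 were weaker than these. The one with most IP reads, at 57482093 on chromosome 2, had 84 and ranked 2601 in the V5 Hoxc9 list, and its nearest Flag event was 12246 bp away. Next were 95826666 on chromosome 3 and 66603369 on chromosome 16, each with 69 IP reads. Both had a Flag event close by, at 335 bp (33.1 Flag IP reads) and 483 bp (49.9). A region at 181747589 on chromosome 2 had 65.8 IP reads, and one at 4277062 on chromosome 19 had 65. Of the 5, then, 2 lay within 1 kb of a Flag event. Among regions with a listed control above 0, the 10 with highest IP/Control each had a control of 0.1, and their IP/Control ran from 422.7 to 742.9 with 26.2 to 53.8 IP reads. Of these, 120998542 on chromosome 1 had 41.1 IP reads and 62998187 on chromosome 9 had 53.8, with a Flag event at 215 bp.

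The 3 regions with 2 events had 33.5 to 55.8 IP reads at their stronger event, above the set's median of 32. On chromosome 13, events at 69475957 and 69476111 had 55.8 and 44.2 IP reads and no control reads. Those at 76472714 and 76472873 on chromosome 11 had 47.2 and 27.8 IP reads, also with no control reads. On chromosome 6, 15350743 and 15350894 had 33.5 IP reads each, beside 0.2 and 2.7 control reads, and a Flag event with 106.7 IP reads lay 452 bp away.

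Few regions of the set lay within 10 kb of each other. Such distances depend on the number of regions, and no set of like size was measured beside them. The median distance to the nearest other region of the set was 306390 bp (290438 to 341541), and 94 regions (5.03%) had one within 10 kb. They formed 45 pairs and 1 group of 4. That group lay between 13743658 and 13745897 on chromosome 17, a span of 2239 bp. Its regions had 48.4, 88.6, 51.4 and 123.9 IP reads and 5.9, 8.8, 0.7 and 29.2 control reads, in order of position. The nearest event of another list was 66916 bp away, so this locus was listed with V5 Hoxc9 alone over its whole length. A pair on chromosome 2, at 181747589 and 181747876, lay 287 bp apart, with 0.0 control reads at the first and 29.5 at the second. A V5 Hoxc9 region of any kind stood within 10 kb of 19.3% of the set (17.5 to 21.1) and of 28.5% of the other V5 Hoxc9 regions (27.6 to 29.5).

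A minority of the set had an event of another list shortly beyond the 200 bp limit. Such an event lay within 1 kb of 252 regions (13.5%), between 1 and 10 kb from 647 (34.6%) and beyond 10 kb from 970 (51.9%). The nearest was most often a Flag Hoxc9 event (1252 regions), then a native Olig2 event (373) and a V5 Olig2 event (244). That order follows the lengths of the lists, 49288, 15700 and 11071 events. The median distance was 17803 bp to a Flag event, 41968 bp to a native Olig2 event and 59153 bp to a V5 Olig2 event. Distance went with little change in IP reads, whose medians were 33 within 1 kb, 32 from 1 to 10 kb and 31.4 beyond. Control reads were listed at 0 in 31.7% (26.3 to 37.7) of regions with a neighbour within 1 kb and in 45.1% (41.9 to 48.2) of those with none within 10 kb. Their median control reads were 2.9 and 0.9.

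**Figure D5:**
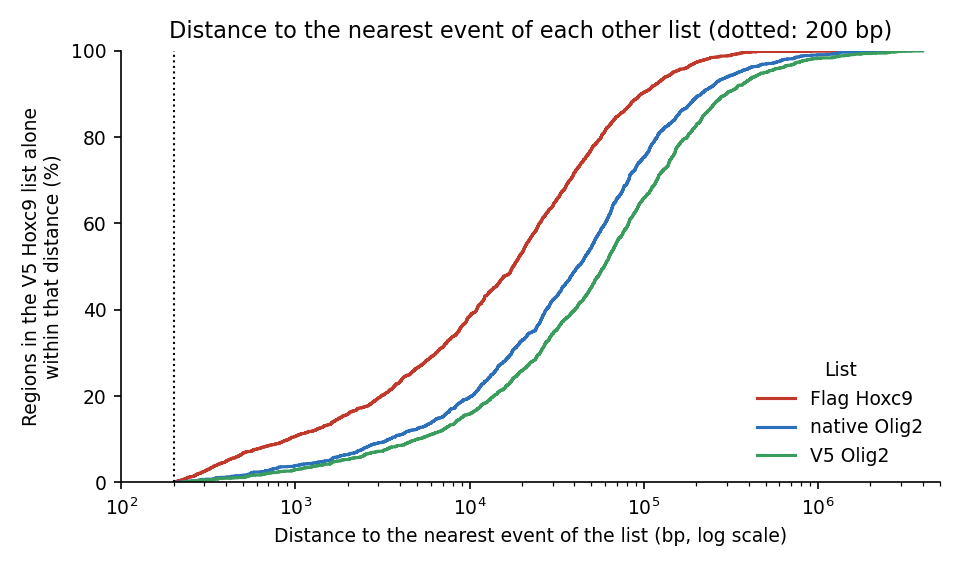
Percent of the 1869 regions (y axis) whose nearest event of another list lies within a given distance (x axis, bp, log scale), 1 line per list; the dotted line marks the 200 bp limit. The Flag Hoxc9 line reaches 10.6% at 1 kb and 38.5% at 10 kb, above native Olig2 (3.91% and 19.8%) and V5 Olig2 (3.00% and 15.8%).

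The regions nearest the limit on either side are given as examples, too few to compare the 2 sides. Just outside, the region at 116863155 on chromosome 4 had 29.5 IP and 2.7 control reads, with a Flag event of 62.2 IP reads 202 bp away. A region at 45245447 on chromosome 2 had 25.8 IP reads and a native Olig2 event at 204 bp. The others nearest the limit were 96622977 on chromosome 12 (55 IP reads) and, on chromosome 13, 114523676 (29.8) and 69992395 (30), with Flag events at 204, 205 and 207 bp. Just inside, V5 Hoxc9 events of 27 IP reads (chromosome 2, 67659223) and 48 IP reads (chromosome 4, 84053348) had a Flag event at 200 bp. Those at 68697000 on chromosome 14 (66.2), 49954989 on chromosome 9 (39) and 52635618 on chromosome 4 (42) had an event of another list at 199, 198 and 197 bp. Such wide gaps were rare: over 5113 regions with 1 V5 Hoxc9 event and 1 event of another list, the median gap was 19 bp and 1.04% exceeded 150 bp.

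The set was spread over all 20 chromosomes used. Its share of V5 Hoxc9 regions ran from 9.47% on X (9 of 95, 5.06 to 17.0) to 24.1% on chromosome 17 (84 of 348, 19.9 to 28.9). The other chromosomes lay between 15.1% and 20.6%, where all chromosomes together had 17.7%. V5 Hoxc9 regions of chromosome 17 had median IP reads of 50, and 22.1% had under 35, where all V5 Hoxc9 regions had a median of 52.5 and 23.6% under 35. On X, median IP reads were 40 and 31.6% of regions had under 35. Control reads on X were listed at 0 in 2 of the 9 regions of the set (22.2%) and in 48.8% of the other V5 Hoxc9 regions, the lowest and the highest value of any chromosome for their group. Median control reads on X were 2.9 in the set and 1.9 in the others, so X, with 9 regions, went against the order seen over all chromosomes.

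Most V5 Hoxc9 regions that lacked a Flag event lacked Olig2 events too. Of 2009 V5 Hoxc9 regions without a Flag event, 1869 were in the V5 Hoxc9 list alone (93.0%, 91.8 to 94.1). Olig2 events were also missing from most V5 Hoxc9 regions with a Flag event (79.9%, 79.1 to 80.8) and from 82.4% of all V5 Hoxc9 regions. The remaining 140 held an Olig2 event. They had a median of 39.7 IP reads (36.1 to 44.4) and 2.9 control reads, and 17.9% of them had 10 or more control reads (12.4 to 25.0), where the set of 1869 had 3.75%. V5 Hoxc9 regions with Flag and Olig2 events together had median control reads of 8.8, and 41.2% of those 1714 regions had 10 or more. V5 Hoxc9 regions shared with Flag alone had median control reads of 3.2, and 16.5% had 10 or more. Median IP reads of these 2 shared classes were 79 and 56.

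Regions held by a single list were the weaker ones in each of the 4 lists, and their share differed from list to list. That share was 17.7% for V5 Hoxc9, 20.0% for V5 Olig2 (2053 of 10290 regions), 33.6% for native Olig2 (4893 of 14553) and 74.4% for Flag Hoxc9 (32586 of 43810). With the Flag list held to the length of the V5 Hoxc9 list, the share for V5 Hoxc9 was 45.1% (4774 of 10586). The median IP reads of single-list regions were 0.542 times those of the other regions in the V5 Hoxc9 list, 0.593 in the V5 Olig2 list, 0.600 in the native Olig2 list and 0.437 in the Flag Hoxc9 list. Control reads were listed at 0 more often in single-list regions of the V5 Hoxc9 list (40.9% beside 17.7%), the V5 Olig2 list (22.6% beside 7.70%) and the Flag Hoxc9 list (20.9% beside 16.3%). In the native Olig2 list the values were 7.21% and 7.49%. Median IP/Control of single-list regions was above that of the other regions in the V5 Hoxc9 list (16.6 and 12.6) and below it in the V5 Olig2 (17.8 and 18.3), native Olig2 (22.3 and 40.8) and Flag Hoxc9 lists (18.3 and 36.1). The lists differ in length and control step and, depending on the pair, in antibody, factor, day, doxycycline or line. These cannot be told apart with 1 list each.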

How the data were processed

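The submitters' processing notes name Bowtie 0.12.5 and the build mm9. For the event caller, its settings and its control library, the entry is: not given in the sources used here. In the deposited event tables, per the file headers, are IP and control reads per event as estimated counts, which need not be whole. They also give the deposited fold (a ratio of IP to control, called IP/Control here, 9999.9 at no control reads) and the −log10 of p and q as the authors deposited them. The authors' further score columns were left aside. Library totals were not used here, so depth is unknown, and reads were compared within the V5 Hoxc9 list, not as levels between lists. Event calls are not replicated, and no test was run.

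Events on contigs were left out. Regions were chained at 200 bp and took the values of their V5 Hoxc9 event with most IP reads. Shares carry Wilson intervals and medians order-statistic intervals (95%, counting error only, neighbouring regions not being independent). The control step was the value between 0.3 and 4 whose multiples held most control values within 0.05 beyond even spread. Named regions are those with most IP reads, most control reads, highest IP/Control, most IP reads at no control reads, most events, and those nearest the 200 bp limit on either side; 1 rule gave 10 regions of which a few are named, and only 3 regions had more than 1 event. The set, the comparisons and these rules were chosen with earlier results of these data known. Control steps, classes of IP/Control within IP reads, Flag partners and groups of neighbours were added after the values were seen. Chaining was tested on simulated lists with planted regions. Positions are those of the event tables. Motifs and gene locations were planned but not run, since an mm9 genome was not used here. Computation ran in Python 3.11.15 with pandas 2.3.3 and numpy 2.4.6, intervals in SciPy 1.17.1, figures in matplotlib 3.10.9.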

Additional observations from a re-analysis of the deposited data

Results flagged for a closer look

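On unplaced contigs, which the regions above leave out, 4 V5 Hoxc9 events had no event of another list within 200 bp and lie in data the comparisons did not use. Having more IP than control reads came with being listed, since the lowest IP/Control of the list was 3.1. At 5565889 of the contig set Un_random there were 48 IP and 5.9 control reads. The other 3, also on Un_random, had 34.3, 32 and 30 IP reads and no control reads. The remaining V5 Hoxc9 contig event, with 129 IP and 14.7 control reads on 9_random, had a Flag Hoxc9 event within 200 bp.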

How the results depend on the processing

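Of 50 values recomputed (5 results under 10 alternatives), 30 stayed within the interval of the reported value and 20 moved. The share of V5 Hoxc9 regions in that list alone (17.7%) was 19.7%, 16.8% and 16.0% at chaining distances of 100, 500 and 1000 bp, 19.1% against the Flag list alone and 45.1% with the Flag list held to the length of the V5 Hoxc9 list, so it depends on list length. With the shorter Flag list, median IP/Control was 13.7, and 6.74% had 10 or more control reads and 24.2% an IP/Control under 10. The share with 10 or more control reads was 4.82% against Flag alone and 2.12% with IP/Control of 5 or more, which removes such regions by construction. With 50 or more V5 IP reads the share in that list alone was 3.84%, median control reads 8.8 (others 8.6), median IP/Control 7.9 (others 11.1), and 32.4% had 10 or more control reads (others 34.3%) and 66.2% an IP/Control under 10 (others 44.8%). Within each band of IP reads from 50 on, the share with 10 or more control reads was higher in the set than in the others. With −log10 q of 5 or more in all lists the share in that list alone was 7.93%. Median control reads were then 0.0 (others 5.9), and median IP/Control was listed at 9999.9 (others 18.3). Control reads of 10 or more were found in 7.05% (others 23.9%), and an IP/Control under 10 in 10.4% (others 21.6%). In that alternative 383 regions were left. Since −log10 q depends on control reads, these control and IP/Control values follow in part from the cut and do not test the direction. No paired analysis was possible because each condition has 1 list. With 1 list per condition no replicate could be left out. Control steps of 2.95 reads and the unknown depth limit how finely control reads can be compared.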
